A study of Mus musculus with 6 samples.

Results

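Fc-gamma receptors are the receptors by which leukocytes bind the constant part of IgG antibodies. The mouse genes of the family, Fcgr1, Fcgr2b, Fcgr3 and Fcgr4, and Fcer1g, which encodes the signalling chain shared by the activating receptors, were taken by their symbols from the deposited gene list, and all 5 were found among 28692 genes. Fcgr1 encodes the high-affinity receptor of macrophages, and Fcgr3 a low-affinity activating receptor of phagocytes and NK cells. Fcgr4 encodes an activating receptor that binds IgG2a and IgG2b. Fcgr2b encodes the inhibitory receptor, which carries a phosphatase-recruiting motif in its own tail and is the Fc-gamma receptor of B cells. The activating receptors lack a signalling motif of their own and pair with the Fcer1g chain, whose activation motif recruits the kinase Syk when antibody complexes cross-link them. On brain phagocytes the family is known for the uptake of antibody-coated material, and Fcgr1 and Fcgr4 are known as genes that interferon-gamma induces.

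The genes were read in live, DAPI-negative, CD45-positive cells sorted from C57BL/6 mice. The model was experimental autoimmune encephalomyelitis (EAE), in which immunisation against myelin makes T cells attack the central nervous system. Mice lacking miR-155, a microRNA of activated leukocytes (miR-155KO, here KO), and wild-type (WT) mice were sampled on day 0, 13 or 21 after induction, with 1 droplet library for each genotype and day and 6 in all. The series' design gives 5 mice per group; the labels name brain as the tissue, and their protocol names spinal cord as well. The labels do not say what part of the gene the KO removes, in which cells, or how the mice of a group were pooled. The titles give the KO and WT libraries of a day the same number and other days another, so a day cannot be told apart from a batch that this number may mark. Any difference between groups can be technical, since no group holds a second library.

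The promoters of Fcgr4 and Fcgr1 are shown because both genes rose in microglia in EAE and both hold a motif bound by factors of the interferon response. Sequences are from RefSeq (GRCm38.p6) and run 5′ to 3′ over 250 bases before to 50 bases after the start site. In the Fcgr4 promoter, at chr1:171018676-171018975 (plus strand), the capitals mark a match to the ISRE half-site 73 bases before the start site and a GAGGAA match on the opposite strand 22 bases before it.
Fcgr4: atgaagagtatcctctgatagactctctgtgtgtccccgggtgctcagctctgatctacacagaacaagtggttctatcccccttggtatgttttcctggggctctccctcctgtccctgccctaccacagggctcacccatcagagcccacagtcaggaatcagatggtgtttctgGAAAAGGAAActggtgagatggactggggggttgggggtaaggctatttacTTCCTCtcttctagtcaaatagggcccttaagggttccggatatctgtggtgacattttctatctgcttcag
In the Fcgr1 promoter, at chr3:96293920-96294219 (minus strand), the capitals mark a TTCNNNGAA match 109 bases before the start site and a GAGGAA match on the opposite strand 55 bases before it.
Fcgr1: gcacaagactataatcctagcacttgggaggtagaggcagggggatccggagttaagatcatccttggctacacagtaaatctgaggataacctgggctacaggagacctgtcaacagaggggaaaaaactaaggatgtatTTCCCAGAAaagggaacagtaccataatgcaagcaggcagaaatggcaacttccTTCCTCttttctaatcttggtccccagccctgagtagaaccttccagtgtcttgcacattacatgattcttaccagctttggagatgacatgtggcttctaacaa
The letters TTCNNNGAA are the core that STAT factors bind, the ISRE half-site is the core of interferon-stimulated elements, and GAGGAA is the core of the PU.1 site; both strands were searched, and no matches overlapped in these promoters. Of 32851 RefSeq promoters of this length, 8.3% held TTCNNNGAA, 3.44% the ISRE half-site and 28.3% GAGGAA. Fcgr3 held GAGGAA 6 or 15 bases before its start site, depending on the start site, and Fcgr2b and Fcer1g held none of the 3 motifs in these windows. A match describes letters only. Fcgr2b and Fcgr3, whose windows lack both interferon-response motifs, also rose in microglia of day 13 over day 0. Their log2 differences were 1.18 and 0.68, against 4.84 for Fcgr4 and 0.88 for Fcgr1. Fcer1g, whose window lacks these motifs too, did not pass (0.45). Whether the motifs had a part in any rise was not tested.

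The sequence of the missing microRNA is shown with its seed, bases 2 to 8, in capitals, because the KO mice are named for lacking it; the mature sequence lies at chr16:84714143-84714165.
miR-155-5p: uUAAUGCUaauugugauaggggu
The letters complementary to the seed, AGCATTA, were in the annotated 3′ UTR of 0 of the 5 genes, against 8.37% of 21849 genes with such a UTR. Inpp5d, a published target of miR-155 that encodes the phosphatase SHIP-1 recruited by Fcgr2b, held 1 site.
Inpp5d site: tgtttttaaaaAGCATTAaagaaaaccatc
In mm10, the build of the deposited counts, and by the GENCODE M21 annotation, Fcgr2b (ENSMUSG00000026656, chr1:170958617-170976547, minus strand), Fcgr4 (ENSMUSG00000059089, chr1:171018920-171029761, plus strand), Fcgr3 (ENSMUSG00000059498, chr1:171051174-171064935, minus strand) and Fcer1g (ENSMUSG00000058715, chr1:171229572-171234365, minus strand) lie near each other, and Fcgr1 (ENSMUSG00000015947) lies at chr3:96282909-96293969 (minus strand). Fcgr2b shares 3175 bases with the antisense gene Gm38204. How reads of overlapping genes were counted is not stated, so reads of that pair may be split, and Fcgr2b values carry this uncertainty.

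Cells were placed in classes by marker genes, none of them an Fc-gamma receptor gene, and the gate put 6239 cells in microglia, 1983 in monocyte-derived cells, 2416 in neutrophils, 328 in NK cells and 1406 in B cells, with 5139 unassigned. The libraries held 1681 to 5630 barcodes with a median of 3019 to 4368.5 unique molecular identifiers (UMIs, each counting 1 captured transcript), and 207 barcode sequences of 20030 barcodes occurred in more than 1 library. The host gene of the microRNA, Mir155hg, had 0, 0 and 1 UMIs in KO, against 2, 45 and 59 UMIs in WT, in the order of days 0, 13 and 21. The 10 microglial markers summed to 13493 to 35940 CPM (counts per 1000000 UMIs of the class total) in KO and 16070 to 35018 in WT microglia, with 0 of the 10 undetected. CPM is the class's share of its own UMIs, so less RNA of a gene per cell and fewer cells that hold it cannot be told apart from it. Counts of 3′ ends carry no term for transcript length.

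Microglia, which are the macrophages resident in brain tissue, and monocyte-derived cells held all 4 receptors, neutrophils mostly Fcgr3 and Fcgr4, NK cells Fcgr3 and B cells mostly Fcgr2b. Fcer1g was the most abundant of the 5 genes in each of the 6 libraries in the phagocytes and NK cells. In microglia of days 0, 13 and 21, Fcer1g had 2679, 3036 and 2989 CPM in KO and 2611, 3169 and 2917 CPM in WT microglia. The class that should lack these genes, T cells, had 2.37 to 109 CPM of any receptor where detected and 142 to 399 CPM of Fcer1g. The 10 NK markers summed to 196 to 387 CPM in KO and 406 to 995 CPM in WT T cells, with 1 to 5 of them at 0, and the source of the receptor UMIs in T cells was not tested. B cells, at 54.3 to 171 CPM of Fcer1g, were below or within the T cell range in every library.

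**Figure D1:**
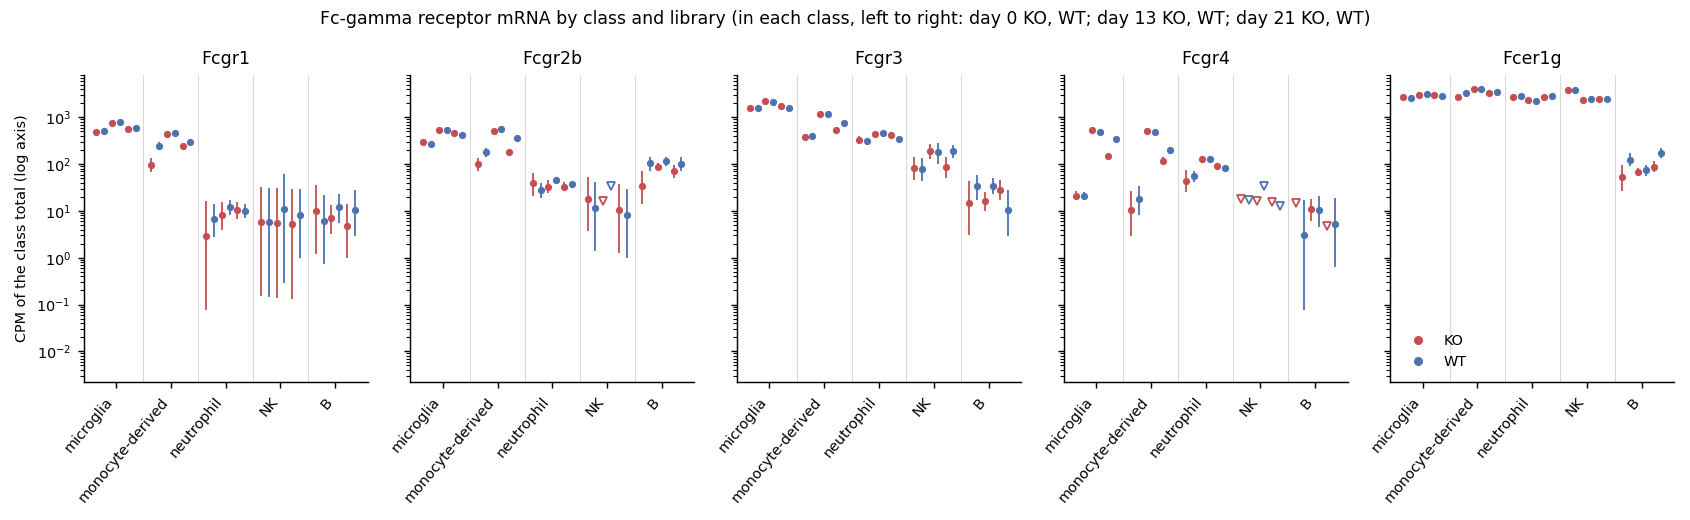
Level of each gene (CPM of the class total, log axis) in the 6 libraries of each class, with exact 95% Poisson intervals that cover counting error only; open triangles mark the floor of 3 counts where no UMI was found. In microglia Fcgr4 spans 20.9 to 544 CPM over the 6 libraries, against 1549 to 2216 CPM for Fcgr3.

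Set against microglia of the same libraries (edgeR's quasi-likelihood test, library as block, Benjamini-Hochberg adjustment over all genes tested), monocyte-derived cells had less Fcgr1 (log2 difference -0.96 ± 0.22 SE, adjusted p = 0.0038) and less Fcgr3 (-1.23 ± 0.23, adjusted p = 0.0012). Of the 5 genes, 2 were lower, where 31.4% of 10754 genes were lower. The chain gene Fcer1g was higher (0.45 ± 0.16, adjusted p = 0.038), 1 of 5 where 26.6% of genes were higher, and this call was lost without WT day 0 (adjusted p = 0.059), KO day 13 (0.17), WT day 13 (0.14), KO day 21 (0.10) or WT day 21 (0.10), and with library totals in place of TMM scaling (0.27, adjusted p = 0.18). Fcgr2b (-0.40, adjusted p = 0.19, or 0.044 with library totals) and Fcgr4 (-0.14, adjusted p = 0.50) did not pass.

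Neutrophils, short-lived granulocytes of the blood, had far less of the macrophage receptor than microglia. Fcgr1 had 2.97, 8.25 and 10.3 CPM in KO and 6.80, 12.2 and 10.1 CPM in WT neutrophils of days 0, 13 and 21, and differed from microglia by -4.94 ± 0.20 (log2, adjusted p = 9.5e-14). Fcgr2b was lower by a log2 difference of -2.41 ± 0.17 (adjusted p = 3.6e-10), and Fcgr3 by -1.08 ± 0.15 (adjusted p = 3.0e-06). Fcer1g had 2691, 2332 and 2733 CPM in KO and 2808, 2254 and 2830 CPM in WT neutrophils, above microglia on day 0 and below them on days 13 and 21 in both genotypes. Its test depended on the scaling: the log2 difference was 0.997 ± 0.17 with TMM (adjusted p = 2.8e-05), 0.83 with DESeq2 size factors (adjusted p = 0.00074) and -0.16 with library totals (adjusted p = 0.31), so no direction is given for it. With TMM 3 of 5 genes were lower, where 40.6% of 10440 genes were lower, and 1 was higher, where 31.4% were. The median of all genes was -0.23 in this contrast with TMM scaling, -0.44 with DESeq2 size factors and -1.38 with library totals, under which 1447 genes were higher and 7532 lower, against 3282 and 4243 with TMM. Fcgr1 (-6.09), Fcgr2b (-3.56) and Fcgr3 (-2.24) were lower with library totals too, each beyond that median. The Fcgr4 difference did not pass (0.14 ± 0.38, adjusted p = 0.74), and its sign turned with DESeq2 size factors (-0.07) and with library totals (-1.01, adjusted p = 0.020).

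NK cells, innate lymphocytes that kill antibody-coated targets, had Fcgr3 and the chain. Fcgr3 had 83.1, 188 and 88.6 CPM in KO and 79.2, 178 and 188 CPM in WT NK cells of days 0, 13 and 21, each above T cells of the same library, at 40.2 to 109 CPM in KO and 37.3 to 45.0 CPM in WT. Fcer1g had 3894, 2335 and 2465 CPM in KO and 3744, 2507 and 2423 CPM in WT NK cells, and its difference from microglia did not pass (log2 -0.08 ± 0.21, adjusted p = 0.77). Against microglia, Fcgr3 was lower in NK cells, with a log2 difference of -3.95 ± 0.24 (adjusted p = 5.9e-09), in a contrast where 27.3% of 8729 genes were lower. Fcgr1, Fcgr2b and Fcgr4 had 0 to 3 UMIs per library in NK cells and passed the low-count filter through microglia, so their lower calls followed from the filter and are not counted. No UMI of Fcgr4 was found in NK cells of any library, and a floor of 3 counts per library allows up to 12.5 to 33.4 CPM. In the contrast of B cells with microglia, where 29.9% of 9692 genes were lower, Fcgr2b was lower (-2.18 ± 0.18, adjusted p = 8.0e-07), at 34.6, 86.5 and 69.7 CPM in KO and 103, 115 and 102 CPM in WT B cells, against 7.12 to 32.2 CPM in T cells. Fcgr3 (-6.19 ± 0.22, adjusted p = 6.4e-10) and Fcer1g (-4.86 ± 0.21, adjusted p = 3.5e-09) were lower in B cells too. Fcgr4 had 0, 14 and 0 UMIs in KO and 1, 8 and 2 UMIs in WT B cells of days 0, 13 and 21. Fcgr1 had 2 to 9 UMIs per library in B cells. Both passed the filter through microglia alone, so their lower calls are not counted.

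The inhibitory receptor's share of all Fc-gamma receptor UMIs is given by class as a description. Fcgr2b was 58.3% to 71.6% of receptor UMIs in KO and 66.9% to 79.2% in WT B cells, 17.04% to 19.3% in KO and 21.0% to 22.03% in WT monocyte-derived cells, and 5.52% to 9.35% in KO and 6.89% to 7.86% in WT neutrophils. The B cell shares rest on 12 to 155 receptor UMIs per library, and that of KO day 0 on 7 of 12 UMIs (exact 95% interval 27.7% to 84.8%). In microglia of days 0, 13 and 21 the share was 12.4%, 13.4% and 15.9% in KO and 11.3%, 13.7% and 14.2% in WT. On day 21 the monocyte-derived cells had 17.05% (exact 95% interval 14.9% to 19.3%) in KO and 22.03% (20.9% to 23.2%) in WT.

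**Figure D2:**
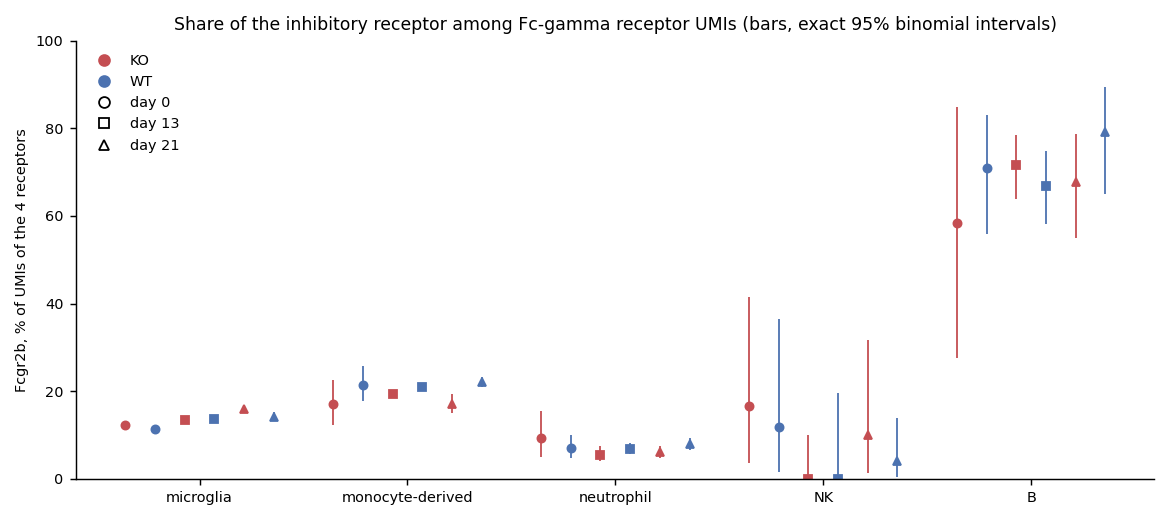
Share of Fcgr2b among the UMIs of Fcgr1, Fcgr2b, Fcgr3 and Fcgr4 (%), per class and library, with exact 95% binomial intervals that cover counting error only. B cells lie between 58.3% and 79.2%, above the other 4 classes, and neutrophils between 5.52% and 9.35%. The lowest B cell point, KO day 0, rests on 12 receptor UMIs, with an interval of 27.7% to 84.8%.

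The first question of the time course was how the family changed in microglia once disease was established. All 4 receptor genes rose in microglia on day 13 against day 0 and Fcgr4 rose by far the most of them. Fcgr4 had 544 CPM in KO microglia and 479 CPM in WT microglia of day 13, against 21.3 CPM in KO microglia and 20.9 CPM in WT microglia of day 0. Both libraries of day 13 were thus above both of day 0, and the log2 difference was 4.84 ± 0.36 (edgeR, genotype as covariate, 2 libraries per day, adjusted p = 4.0e-05). Fcgr2b, the inhibitory receptor, had 546 and 537 CPM in KO and WT on day 13, against 291 and 270 CPM on day 0 (1.18 ± 0.15, adjusted p = 0.00061). Fcgr1 had 758 and 812 CPM in KO and WT on day 13, against 492 and 502 CPM on day 0 (0.88 ± 0.15, adjusted p = 0.0030). Fcgr3 had 2216 and 2086 CPM in KO and WT on day 13, against 1549 and 1595 CPM on day 0 (0.68 ± 0.16, adjusted p = 0.014). For each of the 4 the days did not overlap, which is easily met with 2 libraries a day, so nothing further is read from it. Fcer1g, 3036 and 3169 CPM on day 13 against 2679 and 2611 CPM on day 0 in KO and WT, did not pass (0.45 ± 0.16, adjusted p = 0.068). That is 4 of 5 genes higher, where 15.1% of 10440 genes were higher. With library totals the median of all genes was -0.25 in place of -0.03, 1161 genes were higher and 2323 lower against 1578 and 1258 with TMM, and the same 4 receptors were called, Fcgr3 with an adjusted p of 0.0498.

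Transcripts of other cells moved with the day as well. In KO and WT microglia the sum over the 10 monocyte markers was 604 and 470 CPM on day 13, with Vcan at 0 in KO, against 66.8 and 64.3 CPM on day 0, with Saa3 at 0 in both and Vcan in WT. For the 10 T cell markers it was 114 and 104 CPM in KO and WT on day 13, against 16.99 and 53.7 CPM on day 0. In the microglia with no UMI of a monocyte, T or NK marker, 127 KO and 272 WT cells of day 13 and 930 KO and 992 WT cells of day 0, Fcgr4 had 545 CPM in KO and 451 CPM in WT on day 13, against 17.4 and 17.2 CPM on day 0. In the same cells Fcgr1 had 813 and 778 CPM in KO and WT on day 13, against 502 and 509 CPM on day 0, Fcgr2b 556 and 559.9 CPM against 306 and 263 CPM, and Fcgr3 2559 and 2449 CPM against 1569 and 1622 CPM. The days did not overlap for any of the 4 receptors in this subset, which was chosen after the data were seen. With 2 libraries a day this too is easily met.

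Leaving out 1 library at a time kept Fcgr4 called, and changed other calls. Fcgr1 did not pass without KO day 0 (adjusted p = 0.10) or WT day 0 (0.16), Fcgr2b without WT day 0 (0.053), and Fcgr3 without KO day 0 (0.31), WT day 0 (0.27), KO day 13 (0.12) or WT day 13 (0.071). Fcer1g passed without KO day 21 (adjusted p = 0.0014) or WT day 21 (0.0015), and in Leiden classes (0.54, adjusted p = 0.035).

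**Figure D3:**
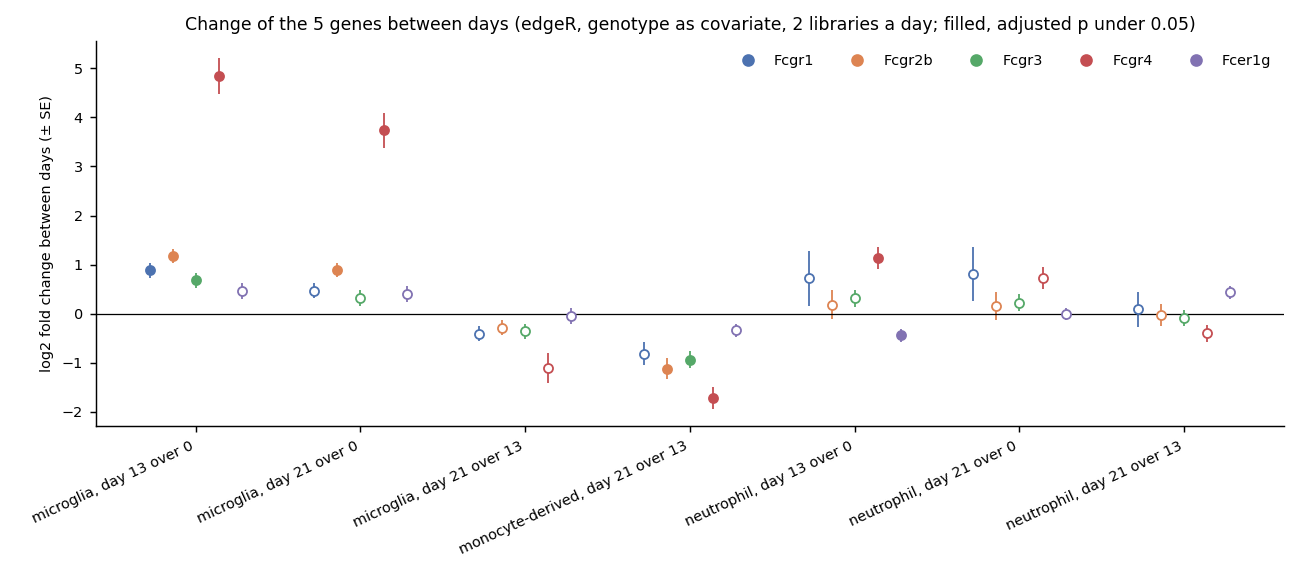
Log2 fold change of the 5 genes between days in microglia, monocyte-derived cells and neutrophils, with its SE; filled points have an adjusted p under 0.05 in edgeR's quasi-likelihood test. Fcgr4 stands at 4.84 in microglia of day 13 over day 0 and at -1.72 in monocyte-derived cells of day 21 over day 13.

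On day 21 against day 0, 2 of 5 genes were higher in microglia, where 8.3% of genes were higher. Fcgr4 had 148 CPM in KO microglia and 351 CPM in WT microglia of day 21 (3.73 ± 0.35 over day 0, adjusted p = 0.00043), and Fcgr2b had 457 CPM in KO and 418 CPM in WT (0.89 ± 0.15, adjusted p = 0.0051). Fcgr2b did not pass without KO day 0 (adjusted p = 0.16) or WT day 0 (0.24). Fcgr1, with 569 CPM in KO and 590.0 CPM in WT on day 21, had an adjusted p of 0.077, which became 0.022 without KO day 21 and 0.029 in Leiden classes; Fcgr3 (0.31, adjusted p = 0.24) and Fcer1g (0.41, adjusted p = 0.14) did not pass. Between day 21 and day 13 none of the 5 passed in microglia with edgeR or DESeq2, where 0.316% of genes were called either way and 1353 genes had an unadjusted p under 0.05. The Fcgr4 difference was -1.11 ± 0.31 (adjusted p = 0.17). It passed without WT day 13 (-1.62, adjusted p = 0.022), without WT day 21 (-1.86, adjusted p = 1.8e-23) and with no filter on low counts (adjusted p = 6.4e-07).

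Per cell, Fcgr4 was found in more microglia on both EAE days, with each cell thinned to 1500 UMIs. A UMI of Fcgr4 was present in 3.43%, 51.7% and 18.6% of KO microglia of days 0, 13 and 21 and in 3.15%, 47.3% and 36.5% of WT microglia; unthinned, the shares were 6.46%, 74.2% and 31.3% in KO and 6.38%, 68.4% and 49.5% in WT. Thinning left out 1 KO cell of day 21, and T cells, thinned in the same way, held it in 0%, 3.10% and 0.980% of KO and 0%, 1.19% and 1.24% of WT cells. The median depth before thinning was 3207, 2908 and 2719.5 UMIs in KO and 3187, 2852 and 2185.5 UMIs in WT microglia, against 2255 to 3337 UMIs in T cells. A UMI of all 4 receptors together was present in 0.491%, 18.3% and 5.90% of KO and 0.514%, 17.3% and 9.90% of WT microglia. Fcgr3 was found in 86.98% to 96.0% of microglia of every library.

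Monocyte-derived cells, which enter the tissue from the blood, had less of 3 receptors on day 21 than on day 13, the only days set against each other in this class. Fcgr4 had 117 CPM in KO and 203 CPM in WT on day 21, against 508 and 480 CPM in KO and WT on day 13 (log2 difference -1.72 ± 0.22, edgeR, adjusted p = 0.0042). Fcgr2b had 184 CPM in KO and 361 CPM in WT on day 21, against 515 and 560 CPM in KO and WT on day 13 (-1.12 ± 0.21, adjusted p = 0.023). Fcgr3 had 529 CPM in KO and 771 CPM in WT on day 21, against 1199 and 1154 CPM on day 13 (-0.94 ± 0.17, adjusted p = 0.021). Day 21 lay below day 13 in both genotypes for each of these genes. They are 3 of 5 genes lower, where 2.08% of 8779 genes were lower. Fcer1g (-0.34, adjusted p = 0.24) and Fcgr1 (-0.82 ± 0.23, adjusted p = 0.097) did not pass. Without KO day 13, Fcgr2b (adjusted p = 0.15) and Fcgr3 (0.11) were not called. Fcgr1 was called without KO day 0 (adjusted p = 0.0090), WT day 0 (0.011), WT day 13 (0.0040), KO day 21 (0.038) or WT day 21 (0.0040), and with no filter on low counts (0.00017). On day 0 these cells numbered 46 in KO and 77 in WT and their Fcgr4 was 10.5 CPM in KO and 17.9 CPM in WT.

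In neutrophils, Fcgr4 was higher on day 13 than on day 0, at 126 CPM in KO and 131 CPM in WT against 44.5 CPM in KO and 55.4 CPM in WT (log2 difference 1.13 ± 0.23, edgeR, adjusted p = 0.0022). This was 1 of 5 genes higher, where 6.8% of 6854 genes were higher. Fcer1g was lower, at 2332 and 2254 CPM in KO and WT on day 13 against 2691 and 2808 CPM on day 0 (-0.44 ± 0.13, adjusted p = 0.026), 1 of 5 where 5.91% of genes were lower. The Fcer1g call was lost with library totals (-0.26, adjusted p = 0.19), without KO day 0 (adjusted p = 0.27), WT day 0 (0.49), KO day 13 (0.058) or WT day 13 (0.071), with DESeq2 (0.24) and with no filter on low counts (0.068). Fcgr3 was 430 and 461 CPM in KO and WT on day 13 against 326 and 308 CPM on day 0 and did not pass (0.31, adjusted p = 0.26), nor did Fcgr2b (0.18, adjusted p = 0.76) or Fcgr1 (0.72, adjusted p = 0.46, but 1.39 with adjusted p = 0.0086 in Leiden classes). On day 21 against day 0 and against day 13, none of the 5 passed in edgeR or DESeq2. In these contrasts 2.55% and 3.44% of genes were called either way, and 934 and 1074 genes had an unadjusted p under 0.05. Fcgr4 of day 21, 91.0 CPM in KO and 84.1 CPM in WT, had a log2 difference of 0.73 from day 0 (adjusted p = 0.11, or 0.046 without WT day 13).

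Clusters named neutrophil by their marker genes differed in these genes, a description only, since clusters share the cells that defined them. In the cluster led by the stefin genes Stfa2 and Stfa3, Fcgr3 had 663 to 855 CPM and Fcgr4 119 to 260 CPM over 5 libraries. The cluster led by 1700047M11Rik had 286 to 412 CPM of Fcgr3 and 48.8 to 102 CPM of Fcgr4 over 6 libraries. The cluster led by Steap4, Cxcr1 and Cxcl3, with 37 to 62 cells per library, had 806 to 1527 CPM of Fcgr3, 94.0 to 504 CPM of Fcgr4, 219 to 464 CPM of Fcgr1 and 3014 to 3322 CPM of Fcer1g over 4 libraries. Of the gated neutrophils of KO day 13, 2 of 195 lay in this cluster, and of the gated microglia of WT day 13, 17 of 911. Its values are thus not those of the gated neutrophils, and whether its barcodes mix cell types was not tested. The cluster led by Fcnb, a gene of immature granulocytes, had the least Fcgr3 of the 4, at 176 to 288 CPM, and the least Fcer1g, at 1244 to 1613 CPM, over 4 libraries.

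KO and WT were compared over all days with day as a block. None of the 5 genes was called in any of the 5 classes by edgeR's quasi-likelihood test or by DESeq2. In microglia 0.0479% of 10440 genes were called, in neutrophils 0.0438% of 6854, in NK cells 0.266% of 2630 and in B cells 0.0746% of 5361. In monocyte-derived cells 0.0% of 8779 genes were called by edgeR and 0 by DESeq2, with 508 and 136 genes at an unadjusted p under 0.05. The log2 differences in microglia were -0.09 for Fcgr1, 0.06 for Fcgr2b, 0.02 for Fcgr3, -0.41 ± 0.27 for Fcgr4 and -0.03 for Fcer1g, each with an adjusted p of 0.9999. In neutrophils they lay between -0.14 and 0.20, with the lowest adjusted p at 0.96.

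The lowest unadjusted p-values stood in 3 other classes. In monocyte-derived cells Fcgr2b had a log2 difference of -0.62 ± 0.19 (unadjusted p = 0.0085, adjusted p = 0.77) and Fcgr1 of -0.47 (unadjusted p = 0.046). The Fcgr2b difference passed without KO day 13 (-0.97, adjusted p = 0.014), without WT day 13 (-0.97, adjusted p = 0.0083) and with no filter on low counts (adjusted p = 0.016). In B cells, where Fcgr1 and Fcgr4 had too few UMIs to test, Fcgr2b had -0.63 ± 0.22 (unadjusted p = 0.0051, adjusted p = 0.50) and Fcer1g -0.65 ± 0.22 (unadjusted p = 0.0036, adjusted p = 0.45). Fcgr2b had less in KO than in WT B cells on each of the 3 days, and Fcer1g, at levels within or below the T cell range, passed without KO day 13 (adjusted p = 0.034) or WT day 13 (0.036). NK cells could be tested for Fcgr3 (-0.71 ± 0.31, unadjusted p = 0.037, adjusted p = 0.79) and Fcer1g (0.03, adjusted p = 0.99) in the 4 libraries of days 0 and 21.

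Within each day KO and WT were 1 library against 1 library, so the ratios below have no replicate check, and their 95% intervals cover counting error only. A gene counted as measured where KO or WT reached 10 CPM, and as apart where they differed 1.5-fold or more. In microglia 0 of 5 genes were apart on day 0, where 2.32% of genes were, and 0 of 5 on day 13, where 8.76% were. On day 21, 1 of 5 was lower in KO, Fcgr4, where 6.71% of genes were lower. Fcgr4 had 791 UMIs in 1713 KO cells and 539 UMIs in 576 WT cells of that day, which is 148 and 351 CPM and a ratio of 0.421 (0.377 to 0.471). On day 13 the ratio was 1.14 (1.04 to 1.24), with 544 CPM in KO and 479 CPM in WT. On day 0 it was 1.02 (0.757 to 1.37). The ratios of the other 4 genes lay between 0.933 and 1.09 on all 3 days.

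**Figure D4:**
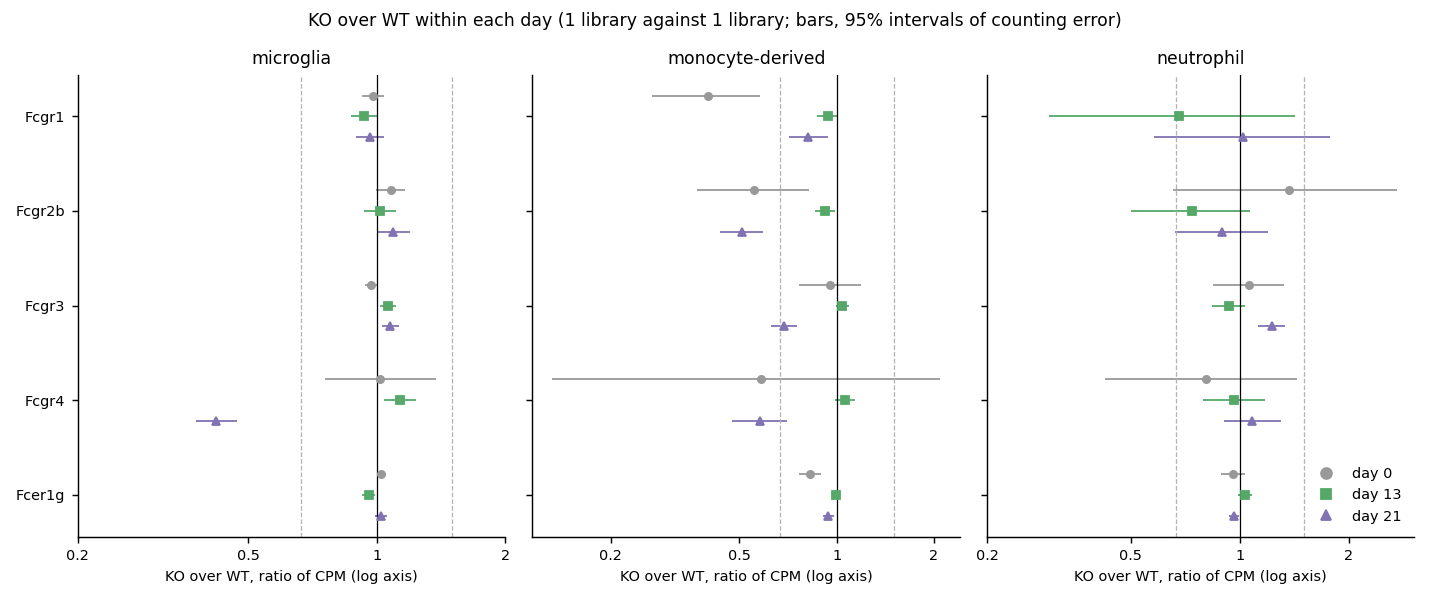
Ratio of KO to WT (CPM, log axis) for each gene within each day, in microglia, monocyte-derived cells and neutrophils, with 95% intervals of counting error; dashed lines mark 1.5-fold either way. In microglia the Fcgr4 point of day 21, at 0.421, is the 1 point past the dashed lines.

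The microglia of day 21 differed between the libraries in more than Fcgr4. H2-Aa, a class II gene induced by interferon-gamma, had a UMI in 33.4% of KO and 71.0% of WT microglia. Of the interferon-gamma response list, 14 of 15 genes were 1.5-fold or more lower in KO, where 6.71% of all genes were. The list's median log2 ratio was -1.53, against 0.07 for all genes. Among microglia with a UMI of H2-Aa, thinned to 1500 UMIs, Fcgr4 had 209 CPM in KO and 381 in WT (0.547, 0.448 to 0.667), and among those without one 124 in KO and 263 in WT (0.471, 0.355 to 0.630). The ratio was thus below 1 on either side of that split, which was made after the values were known. On day 13 H2-Aa had a UMI in 91.4% of KO and 76.9% of WT microglia.

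Transcripts of other cells also moved with the genotype. In microglia of day 21 the summed level of the 10 T cell markers, all detected, was 49.9 CPM in KO, against 501 CPM in WT. That of the 10 monocyte markers was 231 CPM in KO, against 421 CPM in WT, where F13a1 was at 0, and that of the 10 neutrophil markers 672 CPM in KO, against 1160 CPM in WT. The 6 border macrophage markers reached 63.0 CPM in KO, with Cd163 and Lyve1 at 0, against 3.91 CPM in WT, with Pf4, Cd163, Lyve1 and Cbr2 at 0. Their part in the Fcgr4 difference was not tested. In the 1122 KO and 226 WT microglia with no UMI of a monocyte, T or NK marker, a subset chosen after the data were seen, Fcgr4 had a ratio of 0.446, as against 0.421 in all microglia.

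The gated microglia of day 21 lay in different clusters. Of the KO cells 66.7% were in the cluster led by Sardh, Liph and Hist2h3c1, and of the WT cells 50.5% in the cluster led by Adora1, Serping1 and Hcar2, which held 74.6% of KO and 73.0% of WT microglia of day 13. Within the first of these clusters Fcgr4 had 145 CPM in KO and 218 CPM in WT cells of day 21 (0.667, 0.529 to 0.848), and within the second 314 CPM in KO and 511 CPM in WT (0.615, 0.511 to 0.738). Each ratio was thus nearer to 1 than over all gated microglia. Fcgr1 and Fcgr2b had ratios of 0.945 to 1.12 in both clusters, and Fcgr3 0.995 in the first and 0.823 (0.754 to 0.898) in the second.

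**Figure D5:**
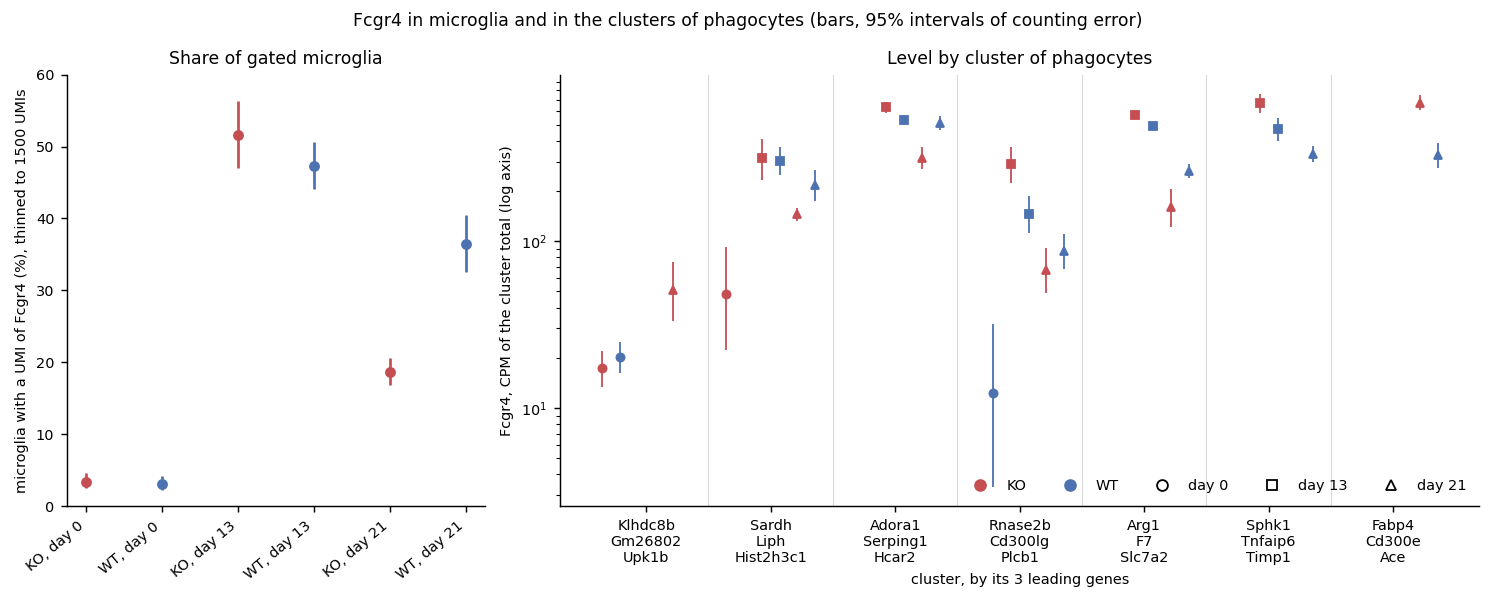
Left, share of gated microglia with a UMI of Fcgr4 at 1500 UMIs per cell (%); right, Fcgr4 level (CPM of the cluster total, log axis) in 7 clusters of phagocytes with 30 or more cells in the library, named by their 3 leading genes; bars are 95% intervals of counting error. On day 21 the share was 18.6% in KO and 36.5% in WT microglia, and the cluster led by Fabp4 had 674 CPM in KO and 327 CPM in WT.

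Among monocyte-derived cells, 3 of 5 genes were 1.5-fold or more lower in KO on day 0, where 14.9% of genes were, 2 of them with intervals that exclude 1, on 46 KO and 77 WT cells. Fcgr1 had 96.8 CPM in KO and 243 CPM in WT (0.399, 0.268 to 0.58) and Fcgr2b 99.4 CPM in KO and 179 CPM in WT (0.555, 0.369 to 0.819). On day 13, 0 of 5 were apart, where 5.75% of genes were, and the ratios lay between 0.92 and 1.06. On day 21, 2 of 5 were lower in KO, where 9.25% of genes were lower. Fcgr2b had 184 CPM in KO and 361 CPM in WT (0.509, 0.436 to 0.592), and Fcgr4 had 117 CPM in KO and 203 CPM in WT (0.579, 0.475 to 0.701). Fcgr3 had a ratio of 0.686 (0.625 to 0.751), just inside 1.5-fold, and Fcgr1 0.818 (0.711 to 0.937).

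The clusters behind this class differed on day 21 as well: the cluster led by Rnase2b, Cd300lg and Plcb1 held 36.3% of the KO and 20.8% of the WT cells, and the cluster led by Arg1, F7 and Slc7a2 20.5% and 36.9%. Within the Rnase2b cluster the ratio of KO to WT was 1.02 (0.808 to 1.3) for Fcgr2b and 0.771 (0.515 to 1.14) for Fcgr4, neither apart. Within the Arg1 cluster it was 0.763 (0.632 to 0.914) for Fcgr2b, 0.604 (0.452 to 0.795) for Fcgr4 and 1.24 (1.05 to 1.45) for Fcgr1. On day 13 Fcgr4 was on the other side of 1 in these clusters, with 289 CPM in KO and 145 CPM in WT in the Rnase2b cluster (1.99, 1.39 to 2.86) and 571 CPM in KO and 492 CPM in WT in the Arg1 cluster (1.16, 1.09 to 1.24).

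Fcgr4 was the other way round in the cluster led by Fabp4, Cd300e and Ace, of which Cd300e and Ace are genes of nonclassical monocytes, with 674 CPM in 121 KO cells and 327 CPM in 85 WT cells (2.06, 1.68 to 2.54). Fcgr3 (464 CPM in KO, 320 CPM in WT, 1.45) and Fcer1g (5036 CPM in KO, 4157 CPM in WT, 1.21) were also above 1 there. Fcgr1 had 108 CPM in KO and 88.1 CPM in WT in that cluster, below the 432 to 534 CPM of the Arg1 cluster.

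Neutrophils had 0 of 4 measured genes apart on day 0, where 36.0% of genes were, and 0 of 5 on days 13 and 21, where 14.1% and 16.3% were. Fcgr3 of day 21, 416 CPM in KO and 340.1 CPM in WT, had a ratio of 1.22 (1.12 to 1.33). In NK cells of day 0, 1 of 3 measured genes was higher in KO, Fcgr2b with 3 UMIs in KO and 2 in WT, where 25.6% of genes were higher. On day 21, 1 of 3 was lower in KO, where 21.7% of genes were lower: Fcgr3, with 17 UMIs in 53 KO cells and 45 UMIs in 84 WT cells (0.472, 0.253 to 0.841). The WT library of day 13 held 25 NK cells, too few for the comparison.

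In B cells of day 0 all 3 measured genes were lower in KO, where 24.7% of genes were lower. Fcgr2b had 7 UMIs in 87 KO cells and 34 UMIs in 120 WT cells, a ratio of 0.334 (0.125 to 0.766). On day 13, 2 of 5 were lower, where 11.9% of genes were, and on day 21, 2 of 4 were lower and 1 higher, where 14.0% were lower and 22.3% higher. Fcgr2b itself had a ratio of 0.752 on day 13 (0.563 to 1.01) and of 0.685 on day 21 (0.434 to 1.09), and both intervals include 1. The others rested on 3 to 64 UMIs per library and lay at or below the range of the same gene in T cells.

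The genes that work with the receptors were read from lists of 15 activating and 8 inhibitory signalling genes, 7 partners of the Fcer1g chain, 11 other receptors of antibody constant regions and 15 genes of the interferon-gamma response. In microglia of day 13 against day 0, 14 of the 15 interferon-gamma response genes rose, where 15.1% of all genes did, with a list median of 5.24 (log2) against -0.03 for all genes. Of the 14, 4 had under 10 UMIs in both libraries of day 0 and passed the low-count filter through the EAE days. The calls of these 4 followed from the filter, and the list median includes them. Among the 4 was Iigp1, a GTPase of intracellular defence, with 631 UMIs in KO and 914 UMIs in WT on day 13, against 1 UMI in KO and 7 UMIs in WT on day 0. Gbp2, a guanylate-binding protein gene, had 896 CPM in KO and 571 CPM in WT, against 7.18 CPM in KO and 10.4 CPM in WT (6.72 ± 0.63, adjusted p = 0.00014). Of the 7 partners of the chain, 3 passed the low-count filter, through the EAE days, so no count of calls is given for them. Clec4e, a C-type lectin gene, had 10 UMIs in KO and 6 UMIs in WT microglia on day 13, against 1 in KO and 2 in WT on day 0. Clec4d had 12 in KO and 26 in WT against 6 in KO and 1 in WT, and Clec4n 29 in KO and 34 in WT against 0 in both. Monocyte-derived cells of day 13 held far more of both Clec4n, at 220 CPM in KO and 196 CPM in WT, and Clec4e, at 139 CPM in KO and 161 CPM in WT. The microglia of that day held 18.97 CPM in KO and 11.6 CPM in WT of Clec4n and 6.54 CPM in KO and 2.05 CPM in WT of Clec4e, and the part of RNA from monocyte-derived cells in these values was not tested.

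The signalling genes moved less. Of the 15 activating ones 4 rose and 0 fell, where 15.1% of all genes rose, among them the kinase gene Fgr (1.42 ± 0.35, adjusted p = 0.016) and the GTPase gene Rac2 (1.38 ± 0.23, adjusted p = 0.0023), with a list median of 0.15. Of the 8 inhibitory ones Pirb, an inhibitory receptor gene, rose (1.90 ± 0.20, adjusted p = 0.00022). Of 4 tested other receptors, Fcgrt, which encodes the neonatal Fc receptor, rose (0.81 ± 0.14, adjusted p = 0.0030). Fcrls and Fcrl1 fell, where 1258 of 10440 genes were lower. Fcrls, an Fc receptor-like gene of resting microglia, had 232 CPM in KO and 330.3 CPM in WT on day 13, against 2836 CPM in KO and 2528 CPM in WT on day 0 (-2.96 ± 0.51, adjusted p = 0.0031). On day 21 it had 1742 CPM in KO and 356 CPM in WT. Fcrl1 fell by 1.41 on the log2 scale (adjusted p = 0.0037).

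On day 21 against day 0, 866 of 10440 genes (8.3%) were higher in microglia and 374 lower. Of the 15 interferon-gamma response genes 14 were higher, again with 4 under 10 UMIs on day 0, whose calls followed from the filter. Of the 15 activating genes 1 was higher (Rac2, 1.10) and 1 lower (Btk, -0.58). Among the 8 inhibitory genes 1 was higher (Pirb, 1.34), and of 4 other receptors 1 was lower (Fcrl1, -1.24). Clec4e had 15 UMIs in KO and 10 UMIs in WT microglia on day 21. Between day 21 and day 13, where 0.316% of all genes were called either way, 1 gene of the 5 lists passed in microglia. It was the factor gene Irf1, which was lower (-1.30 ± 0.21, adjusted p = 0.046). In monocyte-derived cells 8 of 15 interferon-gamma response genes were lower on day 21 than on day 13, where 2.08% of all genes were, with a median of -1.19 against 0.00 for all genes, led by Iigp1 (-2.91), Gbp4 (-1.75) and Gbp2 (-1.71). Clec4n (-1.25) and Pirb (-1.11) were lower too, and 0 of the 15 activating genes passed. In neutrophils of day 13 against day 0, 13 of 15 interferon-gamma response genes passed the low-count filter and 12 were called higher, 6 of them with under 10 UMIs in both libraries of day 0, so nothing is read from this count. On day 21 against day 13, where 3.44% of all genes were called either way, 8 were lower and 1 higher, Irf8 (1.01).

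Between KO and WT over days, 0 genes of these lists passed in microglia, monocyte-derived cells, neutrophils and NK cells. In B cells Socs1, a feedback inhibitor of cytokine signalling, was lower in KO (-1.37 ± 0.28, adjusted p = 0.0086). Inpp5d, the gene with a seed site, had 257, 181 and 234 CPM in KO and 245, 214 and 196 CPM in WT microglia of days 0, 13 and 21. Within day 21, 11 of 15 interferon-gamma response genes were 1.5-fold or more lower in KO monocyte-derived cells (list median -1.42), where 9.25% of all genes were. In KO neutrophils 9 of 10 measured ones were lower to that degree (-1.40), where 16.3% of all genes were apart in either direction. Each comparison had 1 library on each side. Median values of all genes in these 2 comparisons were 0.04 and -0.16.

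Against microglia, where 26.6% of all genes were higher and 31.4% lower, monocyte-derived cells had more of 7 of the 15 activating genes, led by Fgr (4.38), and less of 2, and more of 3 and less of 3 of the 8 inhibitory genes, with Pirb higher (3.18) and Inpp5d lower (-1.86). These shares of the inhibitory list are near those of all genes. Of the 7 chain partners 4 could be tested, and Pira2 (5.97), Clec4e (5.42) and Clec4n (4.602) led them. Neutrophils had more Clec4e (7.08), Pira2 (6.16) and Clec4d (5.87) and more Pirb (3.86). NK cells held Ncr1, the activating receptor NKp46, which signals through the same chain. Ncr1 is among the markers that defined the NK class, so its higher call there followed from the gate and is not counted. B cells held the IgM receptor gene Fcmr, the IgE receptor gene Fcer2a and Fcrla, which had 0 to 7 UMIs per library in microglia. These genes passed the low-count filter through B cells, so their higher calls followed from the filter and are not counted. Tyrobp was lower in B cells (-4.26). Each log2 difference given in this paragraph had an adjusted p under 0.05 in edgeR.

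Over the 38 sums of library and class with 30 or more cells, the genes whose level followed each member most closely were found among 11178 genes by Pearson's r of log2(CPM + 1), as a description, since these sums share libraries and classes. For Fcer1g they were Tyrobp (0.96), which encodes the related chain DAP12, Sdcbp, Tnfrsf1a, Synj1 and Itgam. For Fcgr1 they were Lamp1 (0.94), Plxna4os1, Lpl, Ccl2 and Aif1. For Fcgr2b they were Ifngr2 (0.90), Ctsz, Renbp, Ctsh and Apobec1. For Fcgr3 they were C1rl (0.88), Galc, Abcd2, Clec5a and Slc11a1. For Fcgr4 they were Ier3 (0.89), Gcnt2, Pla2g7, Il27 and Il18bp. Among the members themselves the closest were Fcgr1 and Fcgr2b (0.80) and the least close Fcgr2b and Fcer1g (0.23).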

How the data were processed

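The deposited files give unnormalised UMI counts, 1 matrix of genes by barcodes for each library; per the submitters' processing notes they were made with Cell Ranger 2.0.2 and mm10. Of 20030 barcodes 20007 passed the filters of at least 200 genes detected and no more than 10% of UMIs from mitochondrial genes. A cell was placed in a class when it held 3 or more of its markers and the next class held at most 0.5 of that share. No doublet caller was run. UMIs were summed per library and class where 30 or more cells were present and tested with edgeR 4.0.16 (quasi-likelihood, TMM, low-count filter, Benjamini-Hochberg over all genes tested, threshold 0.05) in R 4.3.3. Genotype was fitted with day as a block, days with genotype as covariate, and classes with library as a block. Since each group held 1 library of 5 mice, libraries of other days serve as replicates, and p-values measure the spread between these libraries only. Day fits used all 6 libraries.

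Within-day ratios carry exact conditional intervals at 95%, and shares of cells were taken after thinning to 1500 UMIs; intervals and floors of 3 counts cover counting error only. Clusters were made with scanpy 1.11.5 and Leiden on 2000 variable genes, 30 principal components and 20 neighbours, without the 5 genes. The members and gene lists were chosen with earlier results of these data known. All 5 genes are covered in every comparison, by name or within a count or range. Also named are up to 3 called genes of the largest change per list and the 5 genes of highest r per member. Inpp5d, Mir155hg and H2-Aa levels were added outside this rule. Alternatives were DESeq2 1.42.0 as size factors and as test, no low-count filter, gates of 2 or 4 markers, Leiden classes, no day block, thinning to 1000 UMIs and each library left out; library totals without composition scaling were added after the data were seen. The tests were tried on simulated data first.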

Additional observations from a re-analysis of the deposited data

Results flagged for a closer look

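Fcgr4 in microglia lay on opposite sides of 1 on different days: the ratio of KO to WT was 1.14 on day 13 and 0.421 on day 21. Fcer1g in microglia did so with a far smaller spread, at 1.03 on day 0 and 0.958 on day 13. Each is 1 library against 1 library, and neither difference between days was tested.

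Fcgr4 also lay on opposite sides of 1 in different clusters of day 21. The ratio of KO to WT was 0.667 in the cluster led by Sardh, Liph and Hist2h3c1, 0.615 in that led by Adora1, Serping1 and Hcar2, 0.604 in that led by Arg1, F7 and Slc7a2, and 0.341 in that led by Steap4, Cxcr1 and Cxcl3, on 37 KO and 62 WT cells. In the cluster led by Fabp4, Cd300e and Ace it was 2.06. The difference between clusters was not tested, and the clusters were looked at after the values were known.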

How the results depend on the processing

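With each library left out in turn, the number of the 5 genes called ranged from 0 to 1 for genotype in monocyte-derived cells and in B cells, from 1 to 5 for day 13 over day 0 and from 1 to 3 for day 21 over day 0 in microglia, from 0 to 1 for day 21 over day 13 in microglia, from 1 to 4 for day 21 over day 13 in monocyte-derived cells, and in neutrophils from 1 to 2 for day 13 over day 0 and from 0 to 1 for day 21 over day 0. With no low-count filter 1 gene was called for genotype in monocyte-derived cells, 1 for day 21 over day 13 in microglia, 1 for day 13 over day 0 and 1 for day 21 over day 13 in neutrophils; with DESeq2, and with library totals in place of TMM, 1 was called for day 13 over day 0 in neutrophils. With Leiden classes 2 genes were apart in NK cells on day 0, 2 on day 21, and 0 in B cells on day 13. Thinned to 1000 UMIs, Fcgr4 was found in 2.37%, 41.7% and 13.7% of KO and 1.76%, 37.4% and 27.6% of WT microglia of days 0, 13 and 21. The number of all genes called also moved under the alternatives, as given below, so these counts are not read as results about the 5 genes. The cause of these changes was not tested.

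Of 433 values with 1 library left out, 367 kept their sign and side of the threshold, 20 lost a call, 15 gained one and 31 changed sign; of 545 under other alternatives the numbers were 513, 4, 8 and 20, and 1 of the sign changes had a call, Fcgr4 in neutrophils over microglia with library totals. Leiden classes gave genotype log2 differences of -0.032 (Fcgr2b) and -0.0564 (Fcgr3) in microglia, 0.19 (Fcgr1) and 0.13 (Fcgr2b) in neutrophils and 0.31 (Fcgr3) in B cells, day 21 over day 13 values of -0.79 (Fcgr1) and 0.0149 (Fcgr3) in neutrophils, and -0.12 for Fcgr4 in neutrophils over microglia. DESeq2 gave 0.0015 for genotype in neutrophils (Fcgr2b) and its size factors -0.0713 for Fcgr4 in neutrophils over microglia; no filter gave 0.0765 for Fcer1g in neutrophils of day 21 over day 0, and the gate with 2 markers -0.0171 for Fcgr1 in neutrophils of day 21 over day 13.

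Library totals gave 0.0035 for genotype in microglia (Fcer1g), -0.0267 (Fcgr4) and -0.0222 (Fcer1g) for genotype in neutrophils, 0.018 (Fcer1g) and -0.0501 (Fcgr1) for neutrophils of day 21 over day 0 and over day 13, -1.0058 (Fcgr4) and -0.1581 (Fcer1g) for neutrophils over microglia, and 0.0223 (Fcer1g) for NK cells over microglia. They gave 2244 genes higher and 4198 lower in monocyte-derived cells over microglia against 2856 and 3380 with TMM, 625 and 1461 against 866 and 374 in microglia of day 21 over day 0, 174 and 168 against 126 and 183 in monocyte-derived cells, and 720 and 265 against 466 and 405, and 66 and 232 against 106 and 130, in neutrophils of day 13 over day 0 and day 21 over day 13.

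With 1 library left out at a time the log2 difference changed sign in these results, none called. For genotype in microglia, -0.0149 to 0.059 for Fcgr3 and -0.82 to 0.13 for Fcgr4. For genotype in monocyte-derived cells, -0.37 to 0.0041 for Fcgr3 and -0.83 to 0.0434 for Fcgr4. For genotype in neutrophils, -0.59 to 0.0794 for Fcgr1, -0.16 to 0.12 for Fcgr2b and -0.0708 to 0.15 for Fcgr4. For genotype in B cells, -1.03 to 0.25 for Fcgr3. For day 13 over day 0 in neutrophils, -0.25 to 0.41 for Fcgr2b. For day 21 over day 0 in neutrophils, -0.26 to 0.40 for Fcgr2b and -0.0549 to 0.08 for Fcer1g. For day 21 over day 13 in neutrophils, -0.19 to 0.58 for Fcgr1, -0.22 to 0.27 for Fcgr2b and -0.29 to 0.11 for Fcgr3. For neutrophils over microglia, -0.32 to 0.46 for Fcgr4. For NK cells over microglia, -0.24 to 0.0164 for Fcer1g.

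The number of all genes called moved by over 1.5 times under some alternative in every genotype and day comparison. For genotype it was 5 in microglia (0 to 126), 0 in monocyte-derived cells (0 to 123), 3 in neutrophils (0 to 190), 7 in NK cells (0 to 26) and 4 in B cells (0 to 34). It was 2836 (645 to 4256), 1240 (235 to 2364) and 33 (18 to 1194) for microglia of day 13 over 0, 21 over 0 and 21 over 13, 309 (154 to 869) for monocyte-derived cells, and 871 (265 to 1055), 175 (31 to 392) and 236 (41 to 446) for neutrophils in the same order of days. The genotype fits pair the KO and WT library of a day through the day block, and without the block all 20 values kept their sign and side of the threshold. NK genotype values with a library left out could not be fitted.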

Other observations

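Cells outside the 5 classes held the chain as well. In plasmacytoid dendritic cells of day 13, antiviral cells that produce interferon, Fcer1g had 942 CPM in 137 KO cells and 1151 CPM in 70 WT cells, and Fcgr2b 42.4 CPM in KO and 46.2 CPM in WT cells. In 33 cells of the WT library of day 21, in a cluster led by the basophil genes Fcer1a, Ms4a2 and Cpa3, Fcer1g had 2722 CPM, Fcgr3 534 CPM and Fcgr4 3 UMIs, with Fcgr1 at 0. A cluster led by Muc13 and Ctsg, genes of progenitors, held 1125 to 1715 CPM of Fcer1g and 162 to 327 CPM of Fcgr3 over its libraries.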
